A study of Mus musculus with 7 samples.

Results

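The mitochondrial carrier family, Slc25, was examined in the mammary glands of PRA transgenic and wild-type mice. Members were taken as every non-control probe whose gene name in the scanner files begins with Slc25a followed by a number, which gave 104 of the 56605 probes and 47 of the 37074 gene names on the array. Slc25 proteins sit mostly in the inner mitochondrial membrane and exchange metabolites, nucleotides, cofactors and ions between the matrix and the cytosol. They are encoded in the nucleus, are made in the cytosol, and enter the membrane through the TOM and TIM22 translocases with the help of small TIM chaperones. In fat and in mammary epithelium, carriers of the family work in citrate export, which feeds cytosolic fatty acid synthesis, and in ATP and ADP exchange. The rule goes by gene name, so carriers with other names, such as the uncoupling proteins Ucp1, Ucp2 and Ucp3, are not among the 47.

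The 3 wild-type and 4 PRA transgenic mice were nulliparous adult FVB animals of 20 to 25 weeks, killed at diestrus, with 1 abdominal gland and 1 array per animal. PRA transgenics are bigenic: they carry CMV-GAL-4, in which a murine cytomegalovirus promoter drives GAL-4, and UAS-PR-A, which adds the A form of the progesterone receptor (PR). Since that promoter is not specific to the mammary gland, the transgene is not limited to it by design, and the labels describe the transgenic glands as preneoplastic. Glands were frozen whole after the lymph nodes had been taken out, so epithelium, fat, vessels and any adjoining muscle were measured together. A lower value in such a sample can mean fewer cells of a type or less RNA per cell, and these cannot be told apart. Gland RNA carried Cy5, and a universal mouse reference RNA pooled from 11 cell lines carried Cy3. All values below are log2 ratios of gland to reference for 1 probe, so that 1 unit is a doubling, and a fold change is the transgenic mean minus the wild-type mean on that scale.

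A few facts of the whole set of arrays bear on the values. The 7 arrays shared 1 slide. Its upper row held the wild-type samples and its lower row the transgenic ones, so the row and the genotype cannot be told apart. Between 62.7% and 66.2% of probes were well above background in Cy5 on the wild-type arrays, and between 56.7% and 60.2% on the transgenic arrays. For the Cy3 reference, the same RNA on every array, these shares were 53.2% to 54.0% and 47.2% to 50.6%. A probe of Pgr, the PR gene, read 5.13, 2.22 and 2.28 in wild-type and 3.08, 3.24, 2.81 and 1.58 in transgenic glands. It did not separate the genotypes (log2 fold change -0.53, SE 0.77), nor did the other kept probe (-0.65, SE 0.80). Wild-type 1 was highest on both, and whether they match the transgene was not tested. PRA 4 stood apart from the other transgenic arrays in markers of skeletal muscle. The mean log2 ratio over 17 of 18 listed muscle genes was 2.58 on PRA 4 against -0.14, -0.24 and -0.23 on PRA 1 to 3, and it was 1.78, -0.30 and 2.89 on the wild-type arrays. The defining muscle gene Ckm was well above background on 3 of 7 arrays and was not tested. White adipocyte markers had means over 11 of 11 genes of 5.21 to 5.61 in wild-type and 5.26 to 5.94 in transgenic glands, and luminal epithelial markers, 13 of 13, had means of 3.40 to 4.10 and 3.25 to 4.13. T cell markers, 9 of 10, were highest on wild-type 1, with means of 2.52, 0.32 and 0.68 in wild-type and -0.13 to 0.35 in transgenic glands.

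Most members were measured. To be kept, a probe needed Cy5 signal well above background in every animal of 1 or both genotypes, and 82 of the 104 Slc25 probes were kept, covering 41 of the 47 genes. The genes without a kept probe were Slc25a2 and Slc25a15, which carry ornithine, the oxodicarboxylate carrier Slc25a21, the testis form of the ADP/ATP carrier Slc25a31, the ATP-Mg/phosphate carrier Slc25a41, and Slc25a54. Of the 22 probes not kept, 12 were above background in Cy5 on no array. Both channels were above background on all 7 arrays for 61 of the 82 kept probes, and 27 genes had more than 1 kept probe. Where a gene had several, the probe brightest in Cy5 stands for it below.

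Few probes differed between the genotypes, among the carriers as over the whole array. By limma, 6 of the 82 kept Slc25 probes had an unadjusted P under 0.05, 5 of them higher and 1 lower in transgenic glands, and over all kept probes of the array that share was 9.02%, with 4.54% higher and 4.48% lower. No Slc25 probe passed an adjusted p of 0.05 by limma, where the lowest value was 0.362 and the share over the whole array was 0.0117%. With the further requirement of a 1.5-fold change, 5 Slc25 probes were left, against 4.53% of all probes. The genotypes did not overlap for 4 of the 82 probes, 3 of them higher and 1 lower in PRA transgenics, against 9.93% of all kept probes. Counted by gene, 1 of 41 was higher (Slc25a10) and 1 was lower (Slc25a16), against 7.95% of the 22504 genes tested. The genotypes did not overlap for 1 of the 41 genes, against 9.09%. With normexp background correction and loess in place of the processed signals, 2 of 5 called probes were higher, against 5 of 6. With Cy5 alone, and with each array centred on its median, 5 of 7 were higher. The share of all probes called in these settings is not given here, so their counts cannot be set against the whole array. Without PRA 4, the number of called probes was 15, with 12 higher and 3 lower, against 12.3% of all probes, 6.91% higher and 5.43% lower. With the replicate number as a block it was 11, against 9.83%. Only transgenic mice have a replicate 4, so for Slc25 probes the block gives the same differences as leaving out PRA 4.

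The 2 genes that passed the unadjusted threshold by their brightest probe were the dicarboxylate carrier Slc25a10, which exchanges malate and succinate for phosphate, and Slc25a16, a carrier linked to coenzyme A. Slc25a1, the citrate carrier, had the largest fitted difference of the 41 genes without passing. For these 3 the 250 bases before the annotated transcript start are shown, 5′ to 3′ on the gene's strand, from RefSeq promoters of build GRCm38.p6. They are shown because, by brightest probe, these genes had the largest differences of the family, and because PR acts by binding DNA. They lie at chr11:120491587-120491836 (plus strand), chr10:62920383-62920632 (plus strand) and chr16:17928220-17928469 (minus strand) for Slc25a10, Slc25a16 and Slc25a1. Capitals mark a CCAAT box (CCAAT, or ATTGG on the other strand).
Slc25a10: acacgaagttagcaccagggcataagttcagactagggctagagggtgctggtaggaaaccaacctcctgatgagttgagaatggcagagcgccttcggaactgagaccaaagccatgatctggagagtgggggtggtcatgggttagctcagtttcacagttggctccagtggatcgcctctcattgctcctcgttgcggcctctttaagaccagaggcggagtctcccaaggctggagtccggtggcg
Slc25a16: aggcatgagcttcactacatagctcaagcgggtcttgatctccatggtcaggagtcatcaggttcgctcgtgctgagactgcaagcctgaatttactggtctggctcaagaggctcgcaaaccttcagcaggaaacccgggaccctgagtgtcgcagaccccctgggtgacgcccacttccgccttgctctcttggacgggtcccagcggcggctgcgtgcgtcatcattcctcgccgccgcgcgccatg
Slc25a1: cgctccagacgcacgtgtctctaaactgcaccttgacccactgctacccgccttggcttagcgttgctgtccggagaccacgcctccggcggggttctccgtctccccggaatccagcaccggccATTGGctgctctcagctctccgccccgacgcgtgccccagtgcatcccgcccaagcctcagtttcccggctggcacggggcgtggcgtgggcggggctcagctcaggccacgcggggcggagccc
Of 4 motifs searched on both strands, the steroid receptor hexamer bound by PR (AGAACA), the CCAAT box, a sterol element (TCACNCCAC) and an NRF1 element (GCGCA and GCGC with 1 base between), only the CCAAT box matched in these windows, once, upstream of Slc25a1. Over all 32851 promoters, 33.8% held a CCAAT box, 16.1% the hexamer, 1.05% the sterol element and 3.74% the NRF1 element. Promoters were listed for 36 of the 47 Slc25 genes, 46 windows in all, of which 21 held a CCAAT box and 4 the hexamer. These matches describe letters in a window and are not binding sites.

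Slc25a10 was higher in PRA transgenics. Its single probe (chr11:120359439-120359498 in mm9) read 2.46, 1.76 and 2.14 in wild-type and 2.74, 2.77, 3.05 and 2.34 in transgenic glands. PRA 1 to 3 lay above every wild-type array, while PRA 4 lay below wild-type 1. The log2 fold change was 0.60 (SE 0.22, 1.52-fold), with an unadjusted P of 0.0305 and an adjusted p of 0.503 by limma. The unadjusted P was between 0.0587 and 0.111 when wild-type 2 or 3 or PRA 1, 2 or 3 was left out, with the smallest difference, 0.42, without wild-type 2. It was 0.0552 by the methods' t-test, 0.0863 with Cy5 alone and 0.0655 with the muscle list as a covariate.

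Slc25a16 was lower in PRA transgenics, and it was the only gene whose brightest probe separated the genotypes. That probe (chr10:62408580-62408639 in mm9) read 1.33, 1.83 and 1.96 in wild-type and 1.12, 0.99, 0.86 and 0.94 in transgenic glands. Every transgenic array lay below every wild-type array, and the transgenic arrays lay close together. The log2 fold change was -0.73 (SE 0.17), with an unadjusted P of 0.00395 and an adjusted p of 0.379 by limma, and the unadjusted P stayed under 0.05 in all 20 alternatives run. The other Slc25a16 probe (chr10:62392505-62392564) differed by -0.17 (SE 0.12), with overlapping genotypes. Slc25a42, which carries coenzyme A into the matrix, read 0.96, 1.32 and 1.20 in wild-type and 0.86, 0.67, 0.89 and 0.96 in transgenic glands. Its log2 fold change was -0.32 (SE 0.14, unadjusted P of 0.0539 by limma), just outside the threshold, and the gene was picked out once its values were known.

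**Figure D1:**
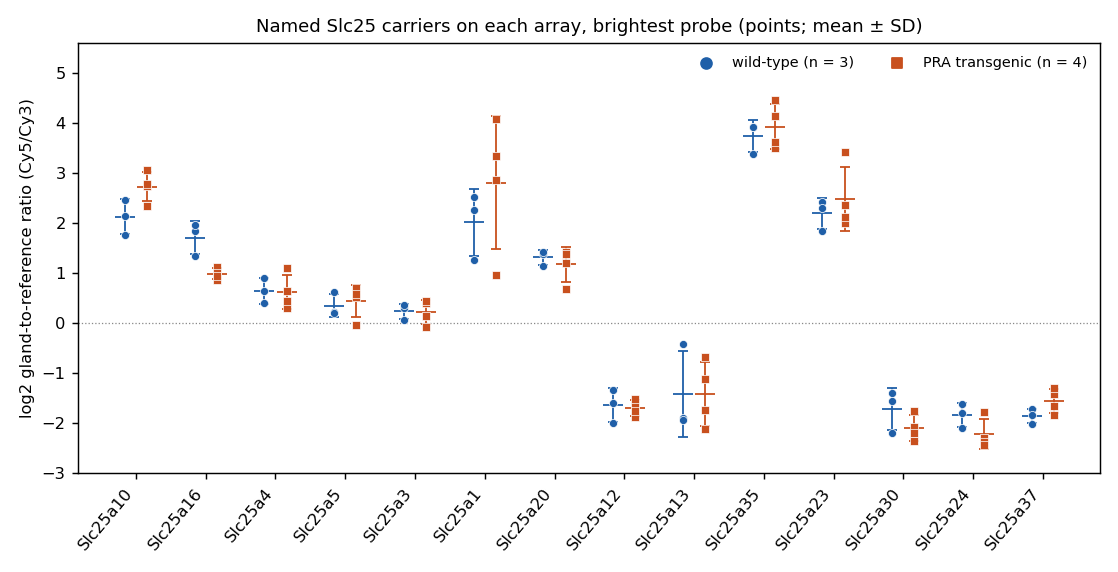
Log2 gland-to-reference ratio (vertical axis) of the brightest probe of 14 Slc25 genes on the 3 wild-type (circles) and 4 PRA transgenic (squares) arrays; bars are mean ± SD. Slc25a16 is the gene whose arrays do not overlap, Slc25a1 has 1 transgenic array at 0.95 below the others at 2.85 to 4.06, and ratios of different genes are relative to the reference and are not levels.

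The carriers of citrate and other carboxylates included the largest positive differences. Of 5 tested, 1 was higher by the unadjusted P (Slc25a10), 4 had a positive fitted value, and the median log2 fold change was 0.19. Over all genes tested, 7.95% passed in either direction, 52.7% had a positive fitted value and the median was 0.01. Slc25a1, which moves citrate out of the matrix, read 2.52, 1.26 and 2.26 in wild-type and 2.85, 3.33, 4.06 and 0.95 in transgenic glands (chr16:17925661-17925720 in mm9). PRA 1 to 3 lay above all wild-type arrays and PRA 4 lay below all of them. The log2 fold change was 0.79 with an SE of 0.72 and did not pass (unadjusted P of 0.306 by limma). A second probe (chr16:17927280-17927339) read 2.44, 1.22 and 2.06 against 2.79, 3.23, 3.79 and 1.19, with a difference of 0.84 (SE 0.61). Both Slc25a1 probes thus placed PRA 4 and wild-type 2 lowest of the 7 arrays. Without PRA 4 the differences were 1.40 (SE 0.44) and 1.36 (SE 0.39), with unadjusted P of 0.0175 and 0.0121 by limma and adjusted p of 0.329 and 0.313. Leaving out any other single array gave 0.37 to 1.04 for the brightest probe. None of those fits passed, with unadjusted P of 0.263 to 0.632 by limma. The oxoglutarate carrier Slc25a11, which works in the malate-aspartate shuttle, differed by -0.10 (SE 0.13).

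Slc25a34 and Slc25a35, orphan carriers related to the yeast oxaloacetate carrier, gave different answers by probe. The brightest Slc25a35 probe read 3.92, 3.37 and 3.92 in wild-type and 4.46, 3.50, 4.13 and 3.61 in transgenic glands, a difference of 0.19 (SE 0.27). PRA 1 and 3 lay above all wild-type arrays, and PRA 2 and 4 lay among them. With Cy5 alone this probe passed, at 0.78 (SE 0.32, unadjusted P of 0.0460 by limma). Its Cy3 reference signal, however, differed by 0.38 between the genotypes, against a median of -0.22 over all kept probes. A dimmer probe (chr11:68785020-68785079 in mm9) read 3.24, 2.82 and 2.26 in wild-type and 3.65, 3.80, 3.86 and 3.40 in transgenic glands. Here the transgenic arrays all exceeded the wild-type arrays, with a difference of 0.91 (SE 0.24, 1.87-fold) and an unadjusted P of 0.00678 by limma (adjusted p 0.405). Its Cy3 reference signal was well above background on 3 of 3 wild-type and on 0 of 4 transgenic arrays, and with Cy5 alone the difference was 0.96. The remaining Slc25a35 probe differed by 0.68 (SE 0.60). The dimmer Slc25a34 probe read 0.87, 0.91 and 0.93 in wild-type and 2.12, 2.38, 1.95 and 0.54 in transgenic glands, so that PRA 4 alone fell below the wild-type arrays. Its difference was 0.85 (SE 0.42) with all arrays and 1.25 (SE 0.15) without PRA 4, against 0.17 (SE 0.30) and 0.43 (SE 0.16) for the brightest probe. The dimmer probe differed by 0.29 with Cy5 alone, and its reference signal was well above background on 2 of 3 wild-type and 0 of 4 transgenic arrays. The value of the brightest probe turned to -0.09 after normexp and loess and to -0.19 with Cy5 alone. That probe had reference signal well above background on 1 of 3 wild-type and 0 of 4 transgenic arrays.

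**Figure D2:**
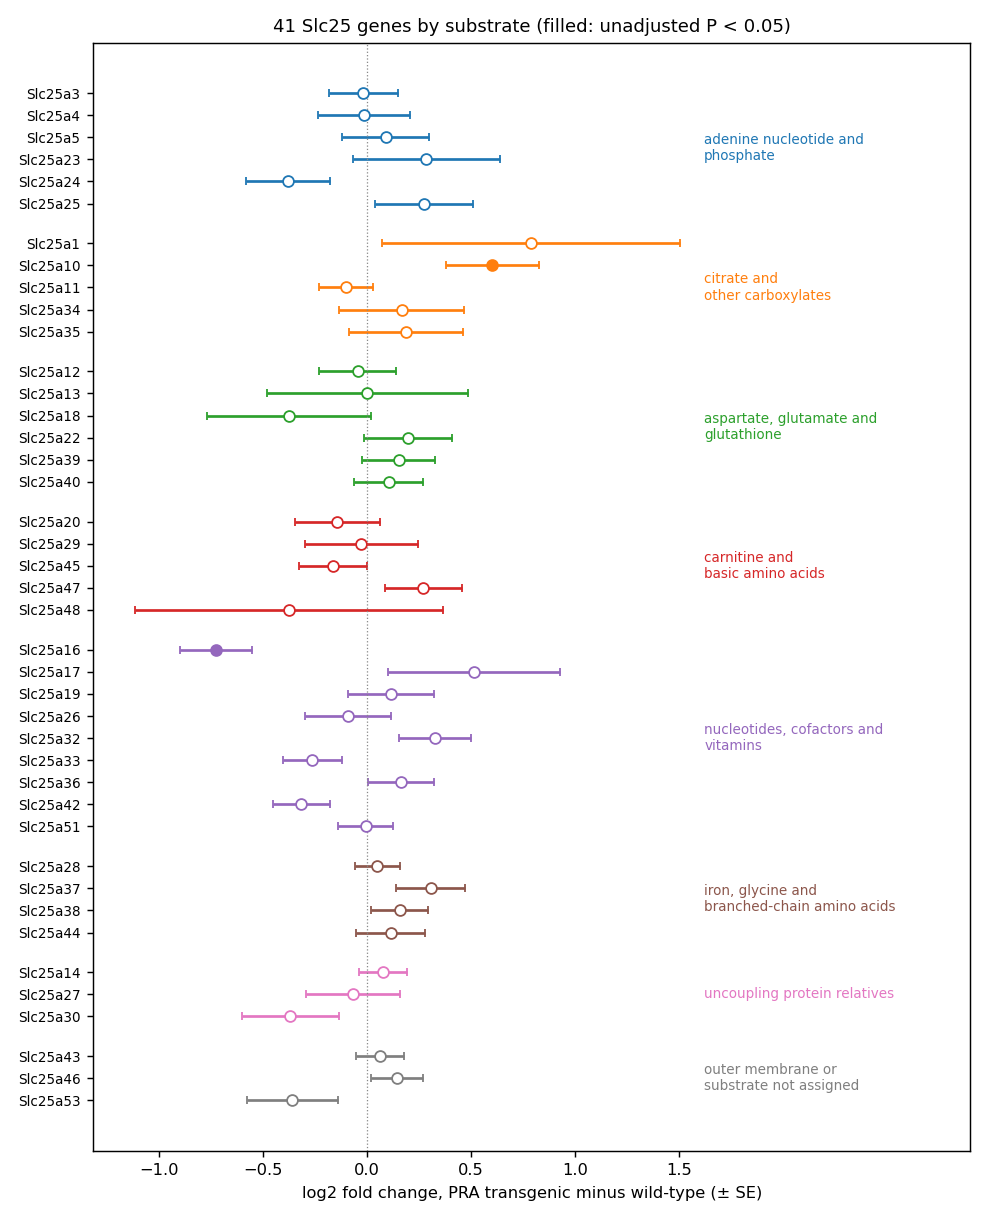
Log2 fold change, PRA transgenic minus wild-type, ± SE from limma (horizontal axis) for the brightest probe of the 41 Slc25 genes tested. Genes are in groups mostly named for a substrate, which not every gene of a group is known to carry. Filled points have an unadjusted P under 0.05. Most genes lie near 0, Slc25a10 at 0.60 and Slc25a16 at -0.73 are filled, and Slc25a1 at 0.79 has a wide error.

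The ADP/ATP and phosphate carriers, the most heavily used members in any respiring cell, did not pass. Slc25a4, the heart and muscle form of the ADP/ATP carrier, read 0.39, 0.89 and 0.63 in wild-type and 1.09, 0.30, 0.64 and 0.44 in transgenic glands. The widely expressed Slc25a5 read 0.22, 0.20 and 0.61 against 0.69, 0.51, 0.57 and -0.04. Slc25a3, the phosphate carrier, read 0.06, 0.30 and 0.35 against 0.39, 0.14, 0.43 and -0.09. The genotypes overlapped for all 3, and the differences were -0.02 (SE 0.22), 0.09 (SE 0.21) and -0.02 (SE 0.17). Slc25a4 and Slc25a5 are close in sequence, and cross-hybridisation between their probes was not tested. The calcium-regulated ATP-Mg/phosphate carriers moved apart in sign, with 0.28 (SE 0.35) for Slc25a23, -0.38 (SE 0.20) for Slc25a24 and 0.27 (SE 0.24) for the brightest probe of Slc25a25, none of which passed. Without PRA 4 Slc25a24 was lower by -0.53 (SE 0.16, unadjusted P of 0.0145 by limma). A dimmer Slc25a25 probe read 0.96, 1.53 and 1.01 in wild-type and 1.81, 1.37, 1.59 and 1.73 in transgenic glands. Wild-type 2 overlapped the transgenic arrays there, and the difference was 0.46 (SE 0.19, unadjusted P of 0.0407 by limma, adjusted p 0.532). It was 0.21 with Cy5 alone, where the unadjusted P was 0.374, and the P was between 0.0688 and 0.137 without wild-type 1 or 3 or PRA 1, 3 or 4. All 4 kept probes of Slc25a25 had positive differences, from 0.23 to 0.69. The probe at 0.69 (SE 0.53) had reference signal well above background on 2 of 3 wild-type and 0 of 4 transgenic arrays. Of the 6 genes of this group tested, 0 passed by their brightest probe.

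Among carriers of folate, nucleotides and other cofactors, 1 of 9 genes was lower by its brightest probe (Slc25a16). Of the 9, 4 had a positive fitted value, and the median log2 fold change was -0.01. Over all genes tested, 7.95% passed in either direction and 52.7% had a positive fitted value. Slc25a32, which carries folate and FAD, had 1 probe that passed and 1 that did not. The passing probe read -0.43, -0.20 and -0.73 in wild-type and 0.24, 0.23, 0.43 and 0.07 in transgenic glands. The genotypes did not overlap, and the difference of 0.69 (SE 0.16) had the lowest unadjusted P of the family, 0.00332, with an adjusted p of 0.362 by limma. Its reference signal was well above background on 3 of 3 wild-type but 1 of 4 transgenic arrays. With Cy5 alone the difference was 0.47, and after normexp and loess it was 0.21 with an unadjusted P of 0.0596. The brightest Slc25a32 probe read -0.48, -0.50 and -0.59 against 0.00, -0.25, 0.05 and -0.58, a difference of 0.33 (SE 0.17) in which PRA 4 lay among the wild-type arrays. For Slc25a17, a peroxisomal carrier of cofactors, the fitted 0.51 (SE 0.41) turned on 1 array: wild-type 1 read -2.31 against -0.78 and -0.54 for wild-type 2 and 3, and without it the difference was -0.04. This gene, too, was picked out once its values were known.

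The iron carriers of heme and iron-sulphur cluster synthesis were Slc25a37 (mitoferrin 1) and Slc25a28 (mitoferrin 2). The brightest Slc25a37 probe read -1.73, -2.02 and -1.84 in wild-type and -1.84, -1.42, -1.30 and -1.66 in transgenic glands, a difference of 0.31 (SE 0.17) that did not pass. A dim probe of the gene read -2.08, -2.14 and -2.04 in wild-type and -1.53, -1.44, -1.53 and -0.12 in transgenic glands. All 4 transgenic arrays lay above all wild-type arrays there, and PRA 4 lay far above its own group. The difference was 0.93 (SE 0.35, unadjusted P of 0.0330 by limma, adjusted p 0.507), and it was 0.59 (SE 0.11) without PRA 4. It was 0.35 after normexp and loess, with an unadjusted P of 0.0673, and the P was 0.165 with Cy5 alone and 0.0710 by the methods' t-test. The unadjusted P lay between 0.0676 and 0.0797 when any 1 of the wild-type arrays was left out. Slc25a28 differed by 0.05 (SE 0.11). All 4 genes of the group that also holds the glycine carrier Slc25a38 and the branched-chain amino acid carrier Slc25a44 had positive fitted values. Over all genes tested, 52.7% did. The median of the group was 0.14, and 0 of 4 passed.

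**Figure D3:**
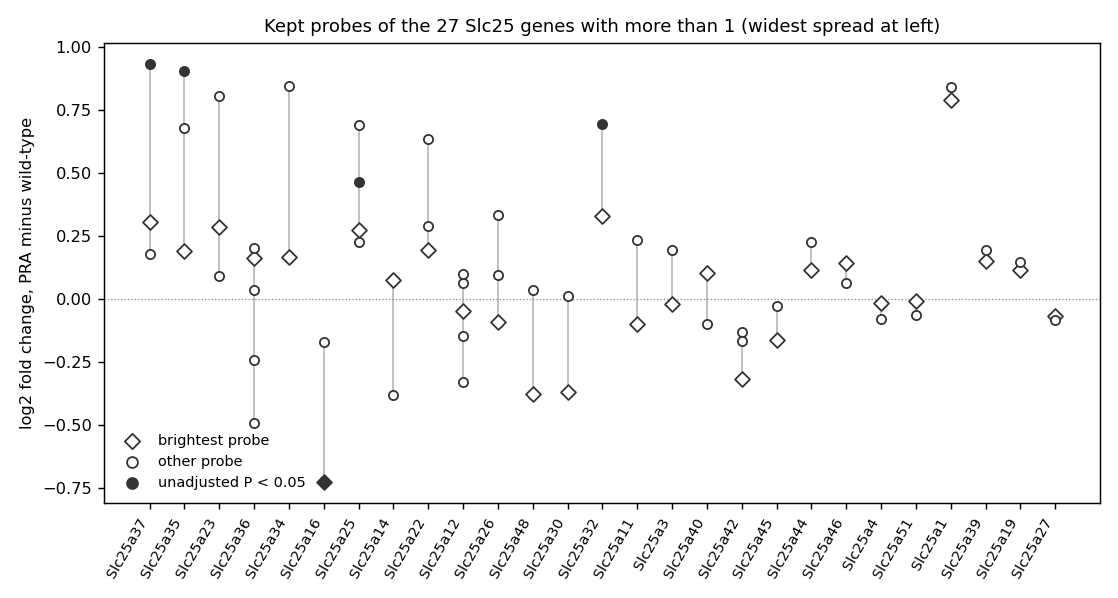
Log2 fold change, PRA transgenic minus wild-type (vertical axis), of every kept probe of the 27 Slc25 genes with more than 1, ordered by the spread between probes; diamonds are the brightest probe, circles the others, and filled symbols have an unadjusted P under 0.05. In Slc25a37, Slc25a35, Slc25a25 and Slc25a32 the filled symbol is not the brightest probe, while the 2 Slc25a1 probes lie together at 0.79 and 0.84.

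Probes of the same gene often differed by as much as the genotypes did. Over the 27 genes with more than 1 kept probe, 18 had the same sign on all probes and 9 had mixed signs. The median gap between the highest and the lowest probe of a gene was 0.37 on the log2 fold change scale. The gap was over 0.5 in 6 genes, of which Slc25a37, at 0.76, Slc25a35, at 0.72, and the ATP-Mg/phosphate carrier Slc25a23, at 0.71, had the widest. Some dim probes were kept through the wild-type arrays alone, which can favour lower transgenic values. Among them were the lowest probes of Slc25a14 (-0.38), Slc25a40 (-0.10) and Slc25a36 (-0.49). The mixed signs of Slc25a14 and Slc25a40 and the full gap of Slc25a36 rest on these probes. No gene had a probe that passed in the opposite direction to its brightest probe.

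The carriers of aspartate, glutamate and glutathione did not pass, with 0 of 6 and a median log2 fold change of 0.05. Slc25a12 and Slc25a13 export aspartate for the malate-aspartate shuttle. Slc25a12 read -1.34, -2.01 and -1.61 in wild-type and -1.89, -1.62, -1.76 and -1.52 in transgenic glands, a difference of -0.05 (SE 0.19). Slc25a13 read -1.90, -1.95 and -0.42 against -2.13, -0.69, -1.13 and -1.75, with a difference of 0.00 (SE 0.48). Arrays of each genotype spread widely for Slc25a13, and the genotypes overlapped. The glutamate carrier Slc25a18 was well above background in Cy5 on all 3 wild-type and on no transgenic array, but so near to background that no fold can be given. It was kept through the wild-type arrays alone, its reference signal was above background on 0 of 7 arrays, and it is counted among the 6. A dim probe of Slc25a40, a glutathione importer, was also above background in Cy5 on all 3 wild-type and on no transgenic array. It too was kept through the wild-type arrays alone and gives no fold. Unlike Slc25a18, its reference signal was above background on all 3 wild-type and all 4 transgenic arrays. The brightest Slc25a40 probe, which stands for the gene, differed by 0.10 (SE 0.17).

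Carriers of carnitine and basic amino acids, grouped here with Slc25a47 and Slc25a48, gave 0 of 5 passing, with a median log2 fold change of -0.14. Slc25a20, which brings acylcarnitines into the matrix for fatty acid oxidation, read 1.37, 1.14 and 1.42 in wild-type and 1.19, 1.43, 1.38 and 0.68 in transgenic glands. The difference of -0.14 (SE 0.20) was smaller than the spread among transgenic arrays. Of the uncoupling protein relatives Slc25a14, Slc25a27 and Slc25a30, 0 of 3 passed, and Slc25a30 had the lowest fitted value, -0.37 (SE 0.23), while its second probe gave 0.01 (SE 0.20). In the last group, of Slc25a43, Slc25a53 and the outer membrane protein Slc25a46, 0 of 3 passed. Slc25a53 read -0.34, -0.61 and -0.49 in wild-type and -0.27 on PRA 4, with PRA 1 to 3 between -1.09 and -0.997, a difference of -0.36 (SE 0.22) with all arrays and -0.55 (SE 0.13) without PRA 4. PRA 1 to 3 lay below all wild-type arrays and PRA 4 above all of them.

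Over the 41 genes the median log2 fold change was 0.06, against 0.01 over all genes tested, and 23 of 41 had a positive fitted value, against 52.7% of all genes. The fitted values ran from -0.73 to 0.79, and 38 of 41 lay within 1.5-fold either way. The median SD between arrays was 0.22 in wild-type and 0.26 in transgenic glands. Single arrays differed more than the genotypes did. PRA 3 was the highest of the 7 arrays for 15 of 41 genes and PRA 1 for 10, where over all genes these arrays were highest for 13.6% and 18.6%. The median deviation of the 41 genes from the wild-type mean was 0.18 on PRA 3, 0.15 on PRA 1, -0.01 on PRA 2 and -0.07 on PRA 4. PRA 2 was the lowest transgenic array for 15 of 41 genes and PRA 4 for 14, against 28.0% and 29.2% of all genes.

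The gland-to-reference ratio itself differed widely between carriers. Of 38 genes with both channels above background on all wild-type arrays, 22 were higher in the gland than in the reference, 12 of them by over 1 log2 unit, and 6 were lower by over 1 unit. The 3 highest wild-type means were Slc25a35 at 3.73 ± 0.32 (SD, n = 3), Slc25a23 at 2.19 ± 0.31 and Slc25a10 at 2.12 ± 0.35. The 3 lowest were Slc25a37 at -1.86 ± 0.15, Slc25a24 at -1.84 ± 0.24 and Slc25a30 at -1.73 ± 0.42. These ratios depend on the reference cell lines and are not levels. The transgenic means of the 6 genes lay on the same side of 0.

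The translocases that insert carriers, and other transporters of mitochondria, were read from lists of related genes. The list of other transport includes Ucp1, Ucp2, Ucp3, Mtch1 and Mtch2. They belong to the carrier family under other names and are not counted with the Slc25 genes above. Of 15 carrier import genes tested, 0 passed and 13 had a positive fitted value, against 52.7% of all genes tested. Their median log2 fold change was 0.11, with a highest value of 0.32 for the brightest probe of the chaperone Timm9. The authors listed Timm9 as higher in PRA transgenics by their own limits, and any other Timm9 probe is not given here. Among 27 genes of other mitochondrial transport, 2 passed by unadjusted limma P, both higher, against 7.95% of all genes tested. The median was 0.02. Sfxn2 read -0.85, -0.94 and -0.89 in wild-type and -0.28, -0.63, -0.57 and -0.64 in transgenic glands. Sfxn5 read 1.09, 1.17 and 0.85 in wild-type and 1.85, 1.47, 1.78 and 1.23 in transgenic glands. For both of these sideroflexins, a family of inner membrane amino acid transporters, the transgenic arrays all exceeded the wild-type arrays. Over all genes tested the genotypes did not overlap, in either direction, for 9.09%. The differences of Sfxn2 and Sfxn5 were 0.36 (SE 0.13) and 0.55 (SE 0.19), with adjusted p of 0.487 and 0.463 by limma. Of the uncoupling proteins, Ucp1 differed by 0.29 (SE 0.30), Ucp2 by 0.04 (SE 0.27) and Ucp3 by 0.06 (SE 0.24).

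Of 31 enzymes that work beside the carriers 0 passed and 19 had a positive fitted value, against 52.7% of all genes tested. The median log2 fold change was 0.06. The enzymes and pyruvate carriers around citrate were looked at after the values of Slc25a1 were seen. ATP citrate lyase, Acly, which splits exported citrate, read 3.45, 1.60 and 3.29 in wild-type and 4.67, 4.85, 5.64 and 0.83 in transgenic glands. The fatty acid synthase Fasn read 6.07, 4.81 and 5.93 against 7.08, 6.56, 7.17 and 4.01, and acetyl-CoA carboxylase, Acaca, read 3.70, 2.47 and 3.38 against 4.32, 3.94, 4.42 and 2.10. As for both Slc25a1 probes, PRA 1 to 3 lay above all wild-type arrays, and PRA 4 and wild-type 2 were the lowest of the 7. The differences were 1.22 (SE 1.15), 0.60 (SE 0.79) and 0.51 (SE 0.60) and did not pass. The mitochondrial pyruvate carrier genes Mpc1 and Mpc2 and the pyruvate carboxylase Pcx also had PRA 4 and wild-type 2 lowest. The order was not limited to the citrate step: these were the 2 lowest arrays for 12 of the 31 enzymes, Acadvl of fatty acid oxidation among them, for 5 of the 41 Slc25 genes and for 7.8% of all genes. PRA 4 held a high skeletal muscle marker level, 2.58, and wild-type 2 a low one, -0.30, and with that list as a covariate the Slc25a1 difference was 0.50 (SE 0.76). The mean of the brown adipocyte list, 7 of 9 genes, was also lowest on these 2 arrays, at 4.34, 3.56 and 4.15 in wild-type and 4.58, 4.09, 4.20 and 3.78 in transgenic glands. Of its defining genes, Ucp1 was well above background on 7 of 7 arrays and Zic1 on 0 of 7. The part of brown fat in the spread of Slc25a1 was not tested.

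**Figure D4:**
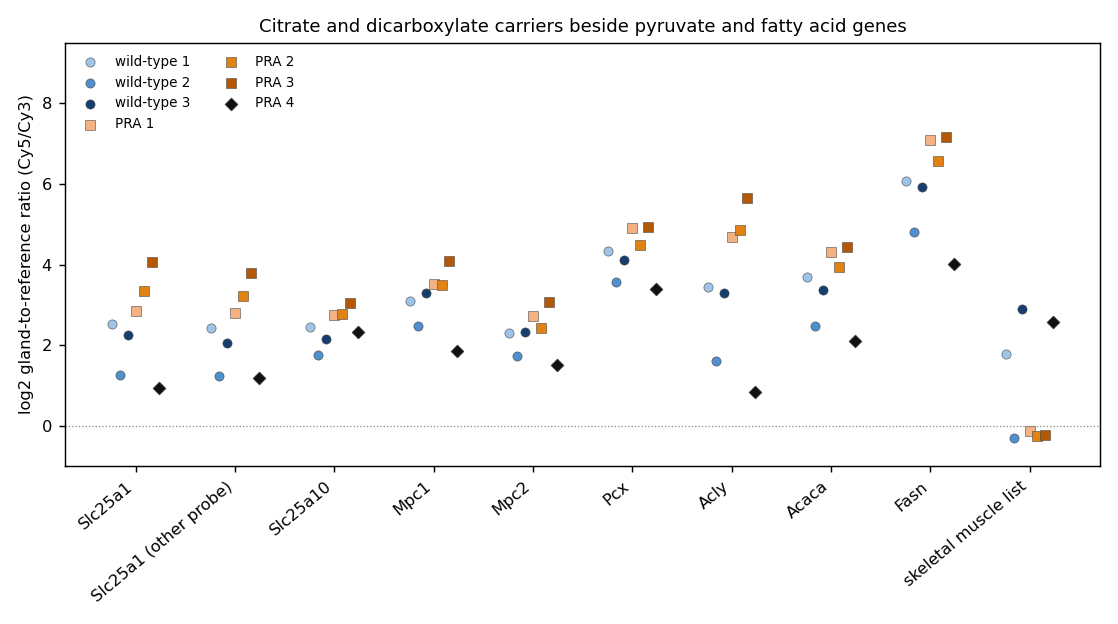
Log2 gland-to-reference ratio (vertical axis) on each of the 7 arrays for both Slc25a1 probes, Slc25a10, the pyruvate carriers Mpc1 and Mpc2, the enzymes Pcx, Acly, Acaca and Fasn, and the mean of the skeletal muscle list; circles are wild-type, squares PRA 1 to 3, and the black diamond PRA 4. PRA 4 and wild-type 2 lie lowest for each gene but Slc25a10, where wild-type 2 is lowest at 1.76 and PRA 4 stands at 2.34.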

How the data were processed

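RNA of 1 mammary gland per mouse was hybridized on a 2-colour Agilent 8x60K mouse array against reference RNA, without a dye swap. The authors deposited scanner output of Agilent Feature Extraction (version 12.0 per the submitters' notes) for each array, with intensity values that had been background-subtracted, detrended and dye-normalized, and flags for each spot. They also deposited a table of log2 ratios, which matched the ratios computed here after centring each probe on its median over the 7 arrays (column medians -0.02 to 0.03). The number of arrays limits the precision, and dim probes are the least certain.

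Control spots and outlier-flagged spots were left out, log2(Cy5/Cy3) was taken, and replicate spots were averaged by probe. Among 56605 probes, 34289 passed the filter on Cy5. The test was limma's moderated one (version 3.58.1, lmFit then eBayes, under R 4.3.3). P-values were adjusted by Benjamini and Hochberg's method over every kept probe. Calls are at an unadjusted P under 0.05, the methods' limit. Each array is 1 animal. The fit was tested on simulated data. The files place probes on mm9; the exon or UTR under each was not analysed here. Named were carriers whose brightest probe, or another, had P under 0.05, 7 carriers chosen for their role, the 3 highest and 3 lowest ratios to the reference, probes above background in 1 genotype only, and genes of the related lists with P under 0.05, beside those said to be chosen later. Members and lists were chosen with earlier results of these data known. All 47 symbols were found in RefSeq. Figures were drawn with matplotlib 3.10.9.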

Additional observations from a re-analysis of the deposited data

Results flagged for a closer look

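On 2 Slc25 probes, 1 transgenic array lay far from the other 3. On the dim probe of Slc25a37 the gap of PRA 4, at -0.12, to the next array was 0.929 of the range of the 4 transgenic arrays. On the brightest probe of the orphan carrier Slc25a53 PRA 4 stood at -0.27 against -1.09 to -0.997 for the others, a gap of 0.887 of the range. The mean of the skeletal muscle list, 2.58 on PRA 4, had a gap of 0.962, and that of the fibroblast list, 2.98 against 2.49 to 2.51, a gap of 0.959. PRA 4 was the array apart in all 4. Each gap is above Dixon's limit for 4 values, which chance passes in about 1 of 20 sets, or about 2.8 of the 56 examined.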

How the results depend on the processing

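Of the Slc25 probes tested, 0 passed an adjusted p of 0.05 in any of 19 alternatives, the methods' t-test among them. The count at an unadjusted P under 0.05, reported as 6, was 11 with the replicate number as a block, and leaving out single arrays gave 4 to 15, the highest without PRA 4, of which 5 are among the 6. Same-numbered deviations correlated at 0.10, -0.30 and 0.04 between the genotypes, too few values to decide whether the replicate numbers pair the mice. The paper names the wild-type mice as littermates and does not say which mice shared a litter. Since no wild-type mouse has the number 4, the block and the fit without PRA 4 are not separate checks. The other alternatives gave 4 to 8. Shares over all probes are given only for the main fit, the block and the fit without PRA 4. The median over Slc25 genes stayed between 0.02 and 0.08. Of 39 genes not called, 19 changed sign in at least 1 alternative. With Cy5 alone Slc25a29, a carrier of basic amino acids, was higher by 1.19 (limma, unadjusted), against -0.03 with both channels. Its Cy3 signal differed by 1.01 between the genotypes. The slide could not be fitted as a block, since there was 1. Where a reference signal was below background, the ratio is less precise.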
